A study of Mus musculus with 6 samples.

Results

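Sorted macrophages of the dorsal root ganglion (DRG) were examined for RNA of injured sensory neurons, with a panel of 10 genes of neuropeptides, neurofilaments and nerve injury (Gal, Npy, Vip, Calca, Tac1, Nefl, Nefm, Nefh, Atf3 and Sprr1a). The panel was chosen by gene name, with the difference of Gal and Nefl between the genotypes already known from these arrays, so the genotype values of its members are given as a description with no test. The platform annotation assigned 11 probe sets to 9 of the 10 genes, out of 45037 probe sets measured, and listed none for Calca, which encodes calcitonin gene-related peptide. Nefl and Tac1 had 2 probe sets each, and the other 7 genes had 1.

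Cells carrying F4/80 and CD11b (population P5) were sorted from pooled ipsilateral DRG of levels L4 and L5, taken a week after spared nerve injury (SNI), in which the tibial and common peroneal branches of the sciatic nerve are cut and the sural branch is left. All mice were injured young adult males. The miR-21 cKO (cKO) mice carried a conditional allele of miR-21 deleted by Avil-Cre, which is driven by the advillin promoter of sensory neurons, and the WT mice were their littermates. Each genotype had 3 arrays, made from pools that the methods describe as independently collected. The methods give no number of mice for the pools sorted for the arrays, nor the Cre status of the WT littermates. No sham-operated or contralateral sample was analysed here, so an effect of injury itself cannot be read from these arrays. The deletion lies in neurons, and the annotation lists no miR-21 probe set, so the genotype of each array rests on its label.

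After its axon is cut, a sensory neuron changes the genes it expresses. Large neurons make the filament proteins of thick axons, small peptidergic neurons make substance P and calcitonin gene-related peptide, and injury adds galanin, neuropeptide Y and vasoactive intestinal peptide together with the transcription factor ATF3 and the small proline-rich protein SPRR1A. Macrophages gather around the injured cell bodies and take up their debris. The miRNA removed from the neurons is miR-21a-5p, shown here because the genotypes differ by it. It lies on the minus strand of chr11:86584120-86584141 (RefSeq, GRCm38.p6), and capitals mark its seed, bases 2 to 8.
mmu-miR-21a-5p: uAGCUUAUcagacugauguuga

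The values are MAS5 signals, a linear brightness of each probe set that the authors scaled alike on every array. They carry no detection call. Olfactory receptor (Olfr) genes, which neither macrophages nor sensory neurons of the DRG are known for, served as background. The 47 Olfr probe sets had medians of 330 to 690 on the single arrays and 95th percentiles of 1464 to 2194. For means over the 6 arrays, the Olfr 95th percentile was a signal of 1037, or 10.02 on the log2 scale. Probe sets bind with different strength, so genotype differences were read within a probe set, between arrays. Comparisons with Olfr, percentiles and sums set different genes side by side and are only a rough guide to level. The macrophage marker Adgre1 (F4/80) read 1979 to 2821 on 5 arrays and 96.9 on cKO array 2. With the brightest probe set of each gene, only 2 of 16 macrophage markers had a mean above the Olfr 95th percentile, against 9.14% of all genes. A signal under this limit therefore does not show that the RNA was absent.

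Measured against Olfr, the panel was mostly in the range of background. The mean of 1 of 11 panel probe sets, Nefl 1426255_at, lay above the Olfr 95th percentile, where 4.95% of all probe sets did. The means of 5 of 11 lay above the median Olfr mean, against 40.7% of all probe sets. On the single arrays, 9 of 66 panel values (13.6%) were above the Olfr 95th percentile of their own array, against 5.76% of all values. These 9 values were 4 in WT and 5 in cKO. They belonged to 4 genes, with 3 values of Nefl, 3 of Tac1, 2 of Npy and 1 of Nefh. WT array 1 had 0 such values, WT arrays 2 and 3 had 2 each, cKO arrays 1 and 2 had 1 each and cKO array 3 had 3. Gal, Vip, Nefm, Atf3 and Sprr1a were above that limit on none of the 6 arrays.

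**Figure D1:**
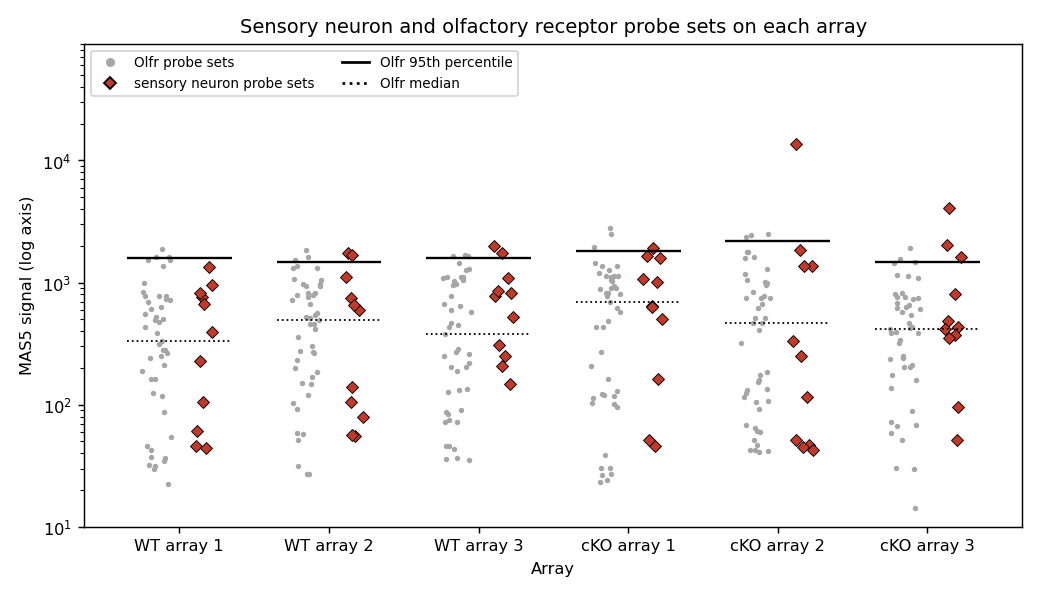
Signal (vertical, log axis) of the 47 Olfr probe sets (grey circles) and the 11 sensory neuron probe sets (red diamonds) on each of 3 WT and 3 cKO arrays; solid lines are the Olfr 95th percentile of the array and dotted lines its Olfr median. Of 66 sensory neuron values, 9 lie above the solid line, with the highest, 13563 of Nefl, on cKO array 2.

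Among the neuropeptides, Gal stood apart. Gal encodes galanin, a peptide that injured sensory neurons make in large amounts and that acts on galanin receptors of neurons. In the order of arrays 1, 2 and 3, which is kept from here on, Gal 1460668_at read 45.7, 55.8 and 147 in WT and 1659, 1374 and 485 in cKO. Every cKO value was above every WT value. The WT mean was 82.9 ± 55.9 (SD, n = 3) and the cKO mean 1173 ± 612 (SD, n = 3), for a log2 fold change of 3.84 (standard error 1.44). All 3 WT values were under the Olfr median of their array, and all 3 cKO values lay between the Olfr median and the Olfr 95th percentile of theirs. In pooled cells, more cells of a type and more RNA per cell cannot be told apart, and the fold change is one of measured signals, with no detection call in either genotype. Without 1 array the log2 fold change was 3.50 to 4.39.

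The other peptides overlapped between the genotypes. Npy encodes neuropeptide Y, which injured large neurons begin to make. Npy 1419127_at read 397, 1754 and 520 in WT and 1935, 332 and 432 in cKO, with 1 high array in each genotype. Its log2 fold change was -0.13 (standard error 1.11), which turned to 0.52 when WT array 2 was left out, to 0.36 without cKO array 2 and to 0.17 without cKO array 3. Vip encodes vasoactive intestinal peptide. Vip 1428664_at read 761, 591 and 250 in WT and 1018, 116 and 374 in cKO, and the log2 fold change was -0.45 (standard error 1.29) and became 0.35 without cKO array 2. The lowest and the highest Vip signal were both in cKO.

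Tac1, the precursor of substance P and neurokinin A, was read by 2 probe sets that gave different pictures. Tac1 1431883_at read 662, 1698 and 2005 in WT and 161, 1844 and 1614 in cKO, and Tac1 1416783_at read 61.3, 141 and 783 in WT and 1066, 51.3 and 51.0 in cKO. The cKO array on which the first was lowest, array 1, was the array on which the second was highest. Their log2 fold changes were -0.74 (standard error 0.98) and -0.42 (standard error 1.5). The first became 0.40 without cKO array 1, and the second became 0.60 without WT array 3, 0.30 without cKO array 2 and 0.31 without cKO array 3. Over the 6 arrays the Pearson correlation of the pair was -0.48 and Spearman's was -0.14.

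**Figure D2:**
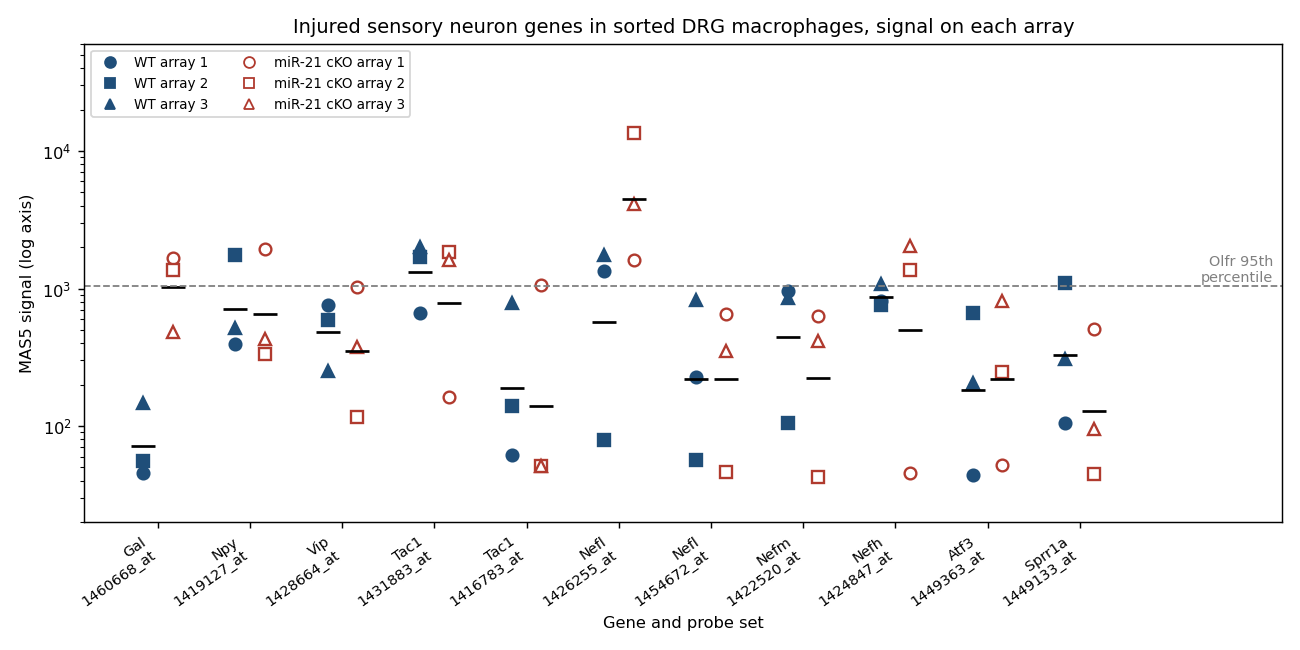
Signal (vertical, log axis) of each sensory neuron probe set on the 3 WT arrays (filled) and the 3 cKO arrays (open), with the array number given by the shape; short bars are means of log2 signals and the dashed line is the Olfr 95th percentile of 1037. Gal is the 1 probe set whose genotypes do not overlap, with at most 147 in WT and at least 485 in cKO.

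The neurofilaments, which fill the axons of large neurons, did not share a direction. Nefl encodes the light subunit, on which the medium subunit of Nefm and the heavy subunit of Nefh assemble. Nefl 1426255_at read 1344, 78.9 and 1743 in WT and 1602, 13563 and 4107 in cKO. Its 2 highest signals were in cKO, and the cKO signal of 1602 was within the WT range. The means were 1056 ± 869 (SD, n = 3) and 6424 ± 6308 (SD, n = 3), and the log2 fold change was 2.97 (standard error 0.85). It was 1.55 without WT array 2, which held the low value of 78.9, and 2.17 without cKO array 2. The standard error is set by limma from the brightness of a probe set, while the log2 SD between arrays was 2.48 in WT and 1.54 in cKO.

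The second Nefl probe set did not follow the first. Nefl 1454672_at read 227, 56.9 and 828 in WT and 648, 46.6 and 351 in cKO, and the log2 fold change was -0.0033 (standard error 1.49). Array 2 of cKO, the brightest for the first probe set, was the dimmest for the second. The pair had a Pearson correlation of 0.13 and a Spearman correlation of -0.03 over the 6 arrays. This was so for most genes. Over the 9010 genes with at least 2 probe sets, the median Pearson correlation of the brightest pair was -0.001, and it was 0.14 for the 106 genes with both probe sets above the Olfr background.

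**Figure D3:**
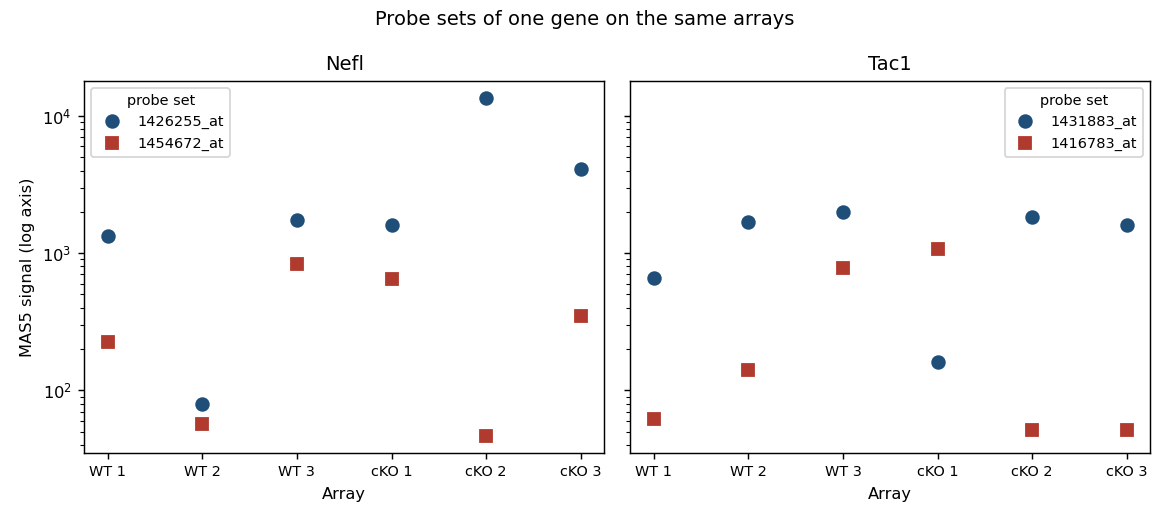
Signal (vertical, log axis) of both probe sets of Nefl (left) and of Tac1 (right) on each of the 6 arrays. On cKO array 2 the Nefl probe sets read 13563 and 46.6, and on cKO array 1 the Tac1 probe sets read 161 and 1066.

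Nefm and Nefh did not show the difference measured by the first Nefl probe set. Nefm 1422520_at read 955, 105 and 859 in WT and 631, 42.4 and 417 in cKO, and the log2 fold change was -0.98 (standard error 1.39), or 0.22 without cKO array 2. It was lowest on array 2 of each genotype and tracked Nefl 1454672_at, with a Pearson correlation of 0.89 and Spearman's of 0.66 over the 6 arrays. Nefh 1424847_at read 817, 753 and 1082 in WT, the tightest group of the panel with a log2 SD of 0.27. In cKO it read 45.5, 1359 and 2028, with a log2 SD of 3.01. The Nefh log2 fold change was -0.80 (standard error 1.12), and it was 0.93 without cKO array 1.

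The injury genes of the panel were dim in both genotypes. Atf3, a transcription factor that is nearly absent from uninjured neurons and switched on by axon damage, is also made by activated macrophages. Atf3 1449363_at read 44.2, 660 and 207 in WT and 51.7, 249 and 810 in cKO, so each genotype spanned most of the range. Its log2 fold change was 0.26 (standard error 1.51), with -0.76 without WT array 1 and -0.68 without cKO array 3. Sprr1a, which promotes axon outgrowth, was measured by 1449133_at with 104.5, 1101 and 309 in WT and 505, 45.0 and 95.2 in cKO. The Sprr1a log2 fold change was -1.35 (standard error 1.5) and stayed negative, from -2.33 to -0.47, without any 1 array.

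Across the panel, 3 probe sets had a positive log2 fold change and 8 a negative one, of which the second Nefl probe set had -0.0033. The median was -0.42, against -0.033 over all probe sets. The methods set 2-fold and a p under 0.05 as thresholds and do not say whether the p was adjusted. With the p taken as unadjusted, 2 of 11 were past these thresholds, Gal and the first Nefl probe set, both higher in cKO. Of all probe sets, 4.51% were called in either direction and 2.11% were higher. Genotypes without overlap were found for 1 of 11, against 9.81% of all probe sets. Because the panel was proposed with this contrast known, nothing is read from these shares. The methods' t-test at the same thresholds called Gal and not Nefl.

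**Figure D4:**
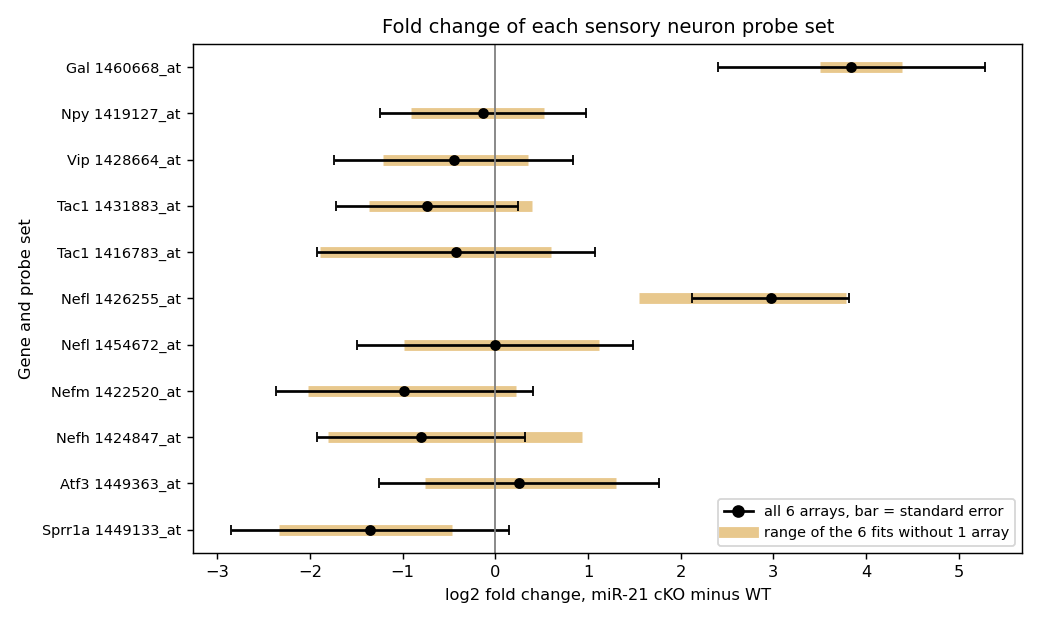
Log2 fold change (horizontal, cKO minus WT) of each sensory neuron probe set; points are the fit of all 6 arrays, thin bars the standard error and wide bars the range of the 6 fits that leave out 1 array. The wide bars of Gal, the first Nefl probe set and Sprr1a stay on 1 side of 0, and the other 8 cross it.

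The panel did not move as 1 block over the arrays. Over the 55 pairs of its probe sets the Pearson correlation of log2 signals across the 6 arrays ranged from -0.87 to 0.92 with a median of -0.06, and 26 pairs were positive and 29 negative. The highest was Tac1 1431883_at with Nefh (Spearman 0.49), followed by Npy with Sprr1a (0.90, Spearman 0.89), and the lowest was the first Nefl probe set with Sprr1a (Spearman -0.83). Gal and the first Nefl probe set had 0.68 (Spearman 0.60). The pairs share the same 6 arrays and genotypes, and these values only describe them. Array 1 of cKO was the highest for 4 panel probe sets (Gal, Npy, Vip and Tac1 1416783_at), all of peptides, and the lowest for Tac1 1431883_at and Nefh. Array 2 of cKO was the highest for the first Nefl probe set and the lowest for 5 others (Npy, Vip, Nefl 1454672_at, Nefm and Sprr1a). The median panel signal lay at the 47.7th percentile of all probe sets on that array and at the 56.5th to 73.7th on the other 5.

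The genes whose pattern over the 6 arrays was most like that of Gal, among 1775 probe sets of named genes above the Olfr background, were Cep112, Patz1, Gm15510, Neurl1a and Dok7, with Pearson correlations of 0.984, 0.947, 0.935, 0.932 and 0.927. Cep112 read 637, 678 and 943 in WT and 2031, 1530 and 1398 in cKO, in the same order of arrays as Gal. For the first Nefl probe set, among 1774 such probe sets, they were Mcrs1, Prkce, Safb, Zscan20 and Trir, with 0.968, 0.951, 0.948, 0.936 and 0.932. None of these 10 was a gene of the neuronal lists examined here, but few genes of those lists were candidates. By the brightest probe set, 1 panel gene, 1 nerve injury gene, 3 identity genes and 0 receptor genes had a mean above the Olfr background. Nothing is read from their absence. With 6 arrays and so many candidates, correlations of this size are a ranking only.

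Other nerve injury genes of sensory neurons passed the thresholds in both directions. These and the following lists were read with 1 probe set per gene, the brightest, in the same fit. Of 20 nerve injury genes, 1 was higher, 3 were lower and 16 did not pass the thresholds, with a median log2 fold change of -0.94 (-0.039 over all genes). Of all 18193 genes, 4.37% passed. Tubb2b, a neuronal tubulin of growing axons, read 122, 40.6 and 156 in WT and 34068, 40.2 and 1546 in cKO, a log2 fold change of 3.81 (adjusted p = 0.9999 from limma), or 1.44 without cKO array 1. Flrt3, a membrane protein of outgrowing axons, read 2220, 186 and 1657 in WT and 44.8, 74.9 and 127 in cKO without overlap, a log2 fold change of -3.55 (adjusted p = 0.9999 from limma). Nts, the peptide neurotensin, read 863, 1668 and 1106 against 261, 37.4 and 703, also without overlap, with -2.62 (adjusted p = 0.9999 from limma) and -1.45 without cKO array 2. Of the 20 genes, 3 had no overlap, where 9.81% of all probe sets had none. The third, Sox11, named after its values were seen, was higher in cKO and did not pass. It read 355, 611 and 91.6 in WT and 630, 789 and 1496 in cKO. Hspb1, a small heat shock protein of injured neurons that other cells make as well, read 4940, 4490 and 2672 against 2940, 224 and 3687, with -1.54 (adjusted p = 0.9999 from limma) and -0.24 without cKO array 2. The other Hspb1 probe set, 1425964_x_at, read 307, 57.2 and 65.6 in WT and 1021, 244 and 428 in cKO, with a log2 fold change of the other sign, 2.18, and the average of both probe sets gave 0.32 and was not called. Hspb1 was the 1 gene of the 20 whose mean was above the Olfr background, against 9.14% of all genes. With any 1 of the WT arrays left out, 2 of the 20 passed, and Flrt3 was lost without WT array 1 (-2.88) or 3 (-3.09).

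Genes of sensory neurons without injury (identity genes), some of them made by other neurons as well, were also examined. Of 28 such genes measured, 7.14% passed the thresholds, 1 higher and 1 lower, against 4.37% of all genes, and 26 did not pass. Sst, the peptide somatostatin, read 214, 1783 and 62.9 in WT and 1418, 3497 and 1420 in cKO, with a log2 fold change of 2.73 (adjusted p = 0.9999 from limma) and 1.63 without WT array 3. Nppb, the natriuretic peptide of itch neurons, read 754, 1146 and 666 against 181, 69.5 and 93.6 without overlap, with -2.98 (adjusted p = 0.9999 from limma). Of the 28 genes, 4 had no overlap, where 9.81% of all probe sets had none. Nppb, Scn9a and Trpm8 were lower in cKO and Snap25 was higher, named after their values were seen. The number that passed was 1 without WT array 1 or 2 or cKO array 2, 0 without WT array 3 and 4 without cKO array 1. In the 6 fits on 5 arrays, Tubb2b passed in 5, Flrt3 and Sst in 4, Hspb1 in 3, Nts in 2 and Nppb in 1, with Nppb at -3.37 to -2.68 and not called when any array other than cKO array 1 was left out. The methods' t-test called Flrt3 and Nppb of these 6, not the other 4, and it also called Snap25, a protein of synaptic vesicle release, which read 191, 100.5 and 134 in WT and 725, 356 and 382 in cKO.

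Among these neuronal genes, 3 of 28 identity genes (10.7%) had a mean above the Olfr background, against 9.14% of all genes. They are named after their values were seen. Prph encodes peripherin, the intermediate filament of small sensory neurons, and Prph 1449796_at read 1996, 5278 and 4837 in WT and 5533, 2132 and 4792 in cKO, above the Olfr 95th percentile of the array on 5 of 6. Ina encodes alpha-internexin, another neuronal filament protein, and Ina 1448991_a_at read 1748, 3213 and 4268 against 4321, 1811 and 2811, also above on 5 of 6. Both were under that limit on cKO array 2 and on no other array, and their log2 fold changes were 0.05 (standard error 0.63) and -0.042 (standard error 0.70). Uchl1, an abundant ubiquitin hydrolase of neurons, read 11564 on WT array 1, 129 on WT array 2 and 1149 to 1794 on the other 4. The genotypes of all 3 overlapped. The other probe sets of both genes varied. Of Ina, 1418178_at read 2226, 2130 and 1911 in WT and 1206, 2968 and 803 in cKO, with a mean above the Olfr background and 4 of 6 values above the limit of their array, while 1448992_at read 99.1 to 1109 with 0 of 6. Of Prph, 1449797_x_at read 552 to 1932 with a mean above the Olfr background and 2 of 6 values above the limit of their array, 1420256_x_at read 59.8 to 3349 with 2 of 6, and 1422530_at read 35.4 to 742 with 0 of 6. Thus 2 of 4 Prph and 2 of 3 Ina probe sets had a mean above the Olfr background, where 4.95% of all probe sets did. Both genes were picked by their level, so nothing is read from these shares. Which cells this RNA came from was not tested.

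The receptors of the panel's peptides were in the range of the Olfr probe sets. The median of their means was 8.52 on the log2 scale, where the median Olfr mean was 8.31. Of 13 receptor genes, 12 had a probe set listed (not Galr3). None was above the Olfr background, against 9.14% of all genes. In limma 0 passed, against 4.37% of all genes, with 0 at an unadjusted p under 0.05. With 12 genes, nothing is read from these shares. The methods' t-test called 1, Tacr1, the receptor of substance P, which read 254, 216 and 572 in WT and 1130, 781 and 1105 in cKO. The smallest limma p-values were those of Npy1r and Npy5r, receptors of neuropeptide Y, with log2 fold changes of 2.44 (standard error 1.39) and 1.67 (standard error 1.18). Npy1r read 53.3, 40.0 and 61.3 in WT and 1045, 637 and 31.3 in cKO. Npy5r read 853, 1074 and 33.3 in WT and 1217, 835 and 970 in cKO. The median over the 12 was 0.95, and 1 passed without cKO array 3.

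Markers of the other cells that a DRG sort could hold were measured on the same arrays. Of all genes, 4.37% were called by limma in either direction, and the methods' t-test called 2225 of 45037 probe sets. With lists of 8 to 16 genes, nothing is read from how many markers were called. Of 12 markers measured of satellite glia and Schwann cells, the cells that wrap sensory neurons and their axons, 0 were called by limma, 0 had an unadjusted p under 0.05 and 0 were called by the methods' t-test. Their summed signal was 6990 to 7549 over the WT arrays and 6638 to 11325 over the cKO arrays, and no signal of any probe set was 0. The smallest limma p-values were those of the myelin protein Pmp22 (log2 fold change -2.63, standard error 1.40) and the transcription factor Egr2 (2.63, standard error 1.48). Of 16 macrophage markers 2 were higher, Itgam (CD11b), an integrin used for the sort (2.51), and Cd14, the co-receptor of lipopolysaccharide (2.47). Their summed signal was 12624 to 20170 in WT and 8762 to 32634 in cKO. Of 8 fibroblast markers 1 was lower, the matrix protein Mgp (-2.89), and the proteoglycan Lum had -1.28 (standard error 1.02). The fibroblast sum was 5649 to 6868 in WT and 3163 to 4774 in cKO. Of 8 endothelial markers 0 passed in limma, with 0 at an unadjusted p under 0.05 and 1, the clotting protein Vwf (2.23, standard error 1.47), by the methods' t-test. The receptor Tek had -1.94 (standard error 1.32), and the endothelial sum was 3934 to 4515 in WT and 3870 to 5138 in cKO. No gene of these lists passed an adjusted p of 0.05. Itgam passed in 1, Cd14 in 2 and Mgp in 4 of the 6 fits on 5 arrays and none by the methods' t-test, with 1.47 for Itgam without WT array 2, 1.52 for Cd14 without cKO array 3 and -1.94 for Mgp without cKO array 2. Whether other cells had a part in the Gal and Nefl signals was not tested.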

How the data were processed

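Macrophages of WT and miR-21 cKO mice were measured with 3 arrays in each genotype. RNA of under 1 ng was amplified with the WT Pico kit, made for whole-transcript arrays, and hybridized to Affymetrix Mouse 430V2 arrays, which read 3' ends. No source used here says whether the labelled strand suits these probe sets, nor gives the MAS5 version. The deposited values are the MAS5 intensity of each probe set, which the authors scaled to a trimmed mean of 500 on each array (2% left out at each end).

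Of 45101 rows, 64 Affymetrix controls were left out and 45037 probe sets tested, with no filter. The platform annotation named 1 gene for 34945, of which 34741 were updated through Entrez (RefSeq, GRCm38.p6, for names). No pseudocount was added before log2. The difference of miR-21 cKO minus WT came from limma 3.58.1 (R 4.3.3; lmFit, eBayes with an intensity trend, Benjamini-Hochberg adjustment over all probe sets), with the thresholds of the methods. The p cutoff was taken as unadjusted, which the methods do not state. The prior degrees of freedom were infinite. Precision is limited by the number of arrays, with a median residual SD of 1.51 (log2). The methods' t-test is Student's test with equal variance on the same values. The paper's array methods name no test, so it need not be the test that the study ran on the arrays. The fit was run on simulated data whose spread was set by brightness, as the fit assumes. This checks the running of the fit and not whether the assumption holds for single probe sets. Figures were drawn with matplotlib 3.10.9.

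Panel and gene lists were chosen with earlier results of these data known. Genes named are all of the panel, those past the thresholds in each list or the 2 with the smallest p, and the 5 most like Gal and Nefl. Others are marked, and some list genes are not reported here. Replicate numbers were not used to pair the arrays in the main fit. Alternatives were other scalings, a floor at the 25th percentile (signal 94.3), a filter, other variance models, array weights, the replicate block, fits on 5 arrays, the methods' t-test, and other probe set and Olfr rules.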

Additional observations from a re-analysis of the deposited data

How the results depend on the processing

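The direction of Gal and of the first Nefl probe set was the same under every alternative that kept probe sets apart. Their log2 fold changes were 3.24 to 4.39 and 1.55 to 3.78, while those of 8 of the other 9 panel probe sets crossed 0 without 1 array. The panel was chosen with the Gal and Nefl differences known, so this is a description only. Averaging the 2 Nefl probe sets is not part of these ranges. Their single log2 fold changes were 2.97 and -0.0033, and an average lies between them, so the Nefl range holds for the first probe set only. The number of panel probe sets past the thresholds was 2 under all of these alternatives except the methods' t-test, which gave 1, and 2 in all fits without 1 array. The mean of 1 panel probe set was above the Olfr background, and this was 0 with the highest Olfr mean as the limit, 4 with the 90th percentile, 2 with the median over arrays and 1 to 3 without 1 array (2 without WT array 1, 3 without cKO array 1). Over the whole array 2031 probe sets were called, 971 with the filter at the median level, which tests fewer, and 1638 to 2125 without 1 array. The methods' t-test called 1 nerve injury gene against 4, 1 peptide receptor against 0 and 1 cell type marker against 3. Averaging the probe sets of a gene gave 2 nerve injury genes, and eBayes without trend gave 1 cell type marker. Without 1 array the counts were 2 to 5 for nerve injury genes, 0 to 4 for identity genes, 0 to 1 for receptors and 1 to 4 for cell type markers, with 1 of these without WT array 2. The cause of these differences was not tested. With the replicate number as a block, 1935 probe sets were called in all and 2 of the panel, and the block changed none of the list counts. Deviations of arrays of the same number correlated at -0.0159, -0.0179 and -0.0329. With signals this variable, such values cannot show whether arrays of the same number were collected together. Dim signals limit most panel values.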
